A study of Mus musculus with 6 samples.

Results

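The Ms4a genes encode small membrane proteins that cross the plasma membrane several times and are used as markers of blood cell lineages. The 7 members described here were Ms4a1, Ms4a2, Ms4a3, Ms4a4b, Ms4a4c, Ms4a6c and Ms4a7, of 15 Ms4a symbols and 20394 genes in the table. They were selected on their levels over cell classes in these same cells, so those levels are given as a description, with no test. All 7 members were found by symbol.

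The cells were CD45+ synovial cells sorted from C57BL/6 mice with antigen-induced arthritis (AIA). The mice, bought at 8 weeks of age, were immunized with 10 µg of methylated bovine serum albumin (mBSA) in complete Freund's adjuvant and challenged in the joint with 100 µg of mBSA on day 21, and tissue was taken 3 days after the challenge. The 2 vehicle samples came from mice given phosphate-buffered saline (PBS) and the 4 PEPITEM samples from mice given 300 µg of PEPITEM intraperitoneally, a peptide that limits leukocyte trafficking, and both groups shared the immunization and the challenge. The deposited table holds 32953 cells whose barcodes end in a library number from 1 to 6, and no source used here links these numbers to the samples, so vehicle and PEPITEM were not compared.

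MS4A1, known as CD20, is the B cell surface protein targeted by therapeutic antibodies. MS4A2 is the beta chain of the high-affinity receptor for IgE, which arms mast cells and basophils. MS4A3 is a marker of granulocyte-monocyte progenitors, Ms4a4b is expressed by T and natural killer (NK) cells, Ms4a4c and Ms4a6c by monocytes, and Ms4a7 by macrophages.

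Per GENCODE M21 on GRCm38 (mm10), the members lie in a single cluster on chromosome 19, where the 15 Ms4a genes of the table span 663 kb and 3 other protein-coding genes lie between the first and the last of the 19 annotated Ms4a genes. Ms4a1 (chr19:11249675-11266241), Ms4a7 (chr19:11321039-11336146), Ms4a2 (chr19:11615523-11623719) and Ms4a3 (chr19:11629496-11640851) are read from the minus strand. Ms4a4c (chr19:11404770-11427246), Ms4a4b (chr19:11443553-11467055) and Ms4a6c (chr19:11469366-11482192) follow each other on the plus strand. The annotated starts of Ms4a2 and Ms4a3 are 17.1 kb apart and those of Ms4a4c and Ms4a4b 38.8 kb, yet the members of each pair were highest in different lineages, as described below.

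Promoter windows of 300 bases, from 250 before to 50 after the start in RefSeq (GRCm38.p6), were found for 6 of the 7 members. The RefSeq start of Ms4a4c lies within the GENCODE gene, downstream of the GENCODE start used for the distance above. The 4 windows below belong to these neighboring pairs and are shown because each pair divides between lineages. Each runs 5′ to 3′ on the strand of its gene, and capitals mark a match on either strand to 1 of 8 motifs. The letters searched were AGATAA for GATA factors, TTGCNNAA for C/EBP, GAGGAAGT for PU.1, ATGCAAAT for the octamer, TGTGGT for RUNX, CAGCTG for an E-box and TATAAA for a core promoter box, beside the interferon-response element. No matches to different motifs overlapped in these 4 windows.
Ms4a2, chr19:11623670-11623969, minus strand: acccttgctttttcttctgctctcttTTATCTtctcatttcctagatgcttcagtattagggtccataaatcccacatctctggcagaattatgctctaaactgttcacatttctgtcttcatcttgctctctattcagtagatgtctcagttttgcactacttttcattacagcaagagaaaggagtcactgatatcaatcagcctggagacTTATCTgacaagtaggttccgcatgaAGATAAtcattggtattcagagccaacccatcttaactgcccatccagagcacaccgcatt
Ms4a3, chr19:11640802-11641101, minus strand: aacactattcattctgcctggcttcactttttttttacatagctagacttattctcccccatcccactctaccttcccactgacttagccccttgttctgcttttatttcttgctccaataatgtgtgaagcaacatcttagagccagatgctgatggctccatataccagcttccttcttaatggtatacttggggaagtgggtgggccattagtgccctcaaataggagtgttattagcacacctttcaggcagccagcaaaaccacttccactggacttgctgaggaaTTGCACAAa
Ms4a4b, chr19:11443308-11443607, plus strand: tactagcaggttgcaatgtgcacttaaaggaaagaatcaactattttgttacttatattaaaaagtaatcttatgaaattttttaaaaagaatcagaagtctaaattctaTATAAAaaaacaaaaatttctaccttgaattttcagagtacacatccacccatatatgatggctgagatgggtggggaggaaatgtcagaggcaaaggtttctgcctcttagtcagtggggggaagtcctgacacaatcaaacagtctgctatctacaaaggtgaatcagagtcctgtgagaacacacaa
Ms4a4c, chr19:11407411-11407710, plus strand: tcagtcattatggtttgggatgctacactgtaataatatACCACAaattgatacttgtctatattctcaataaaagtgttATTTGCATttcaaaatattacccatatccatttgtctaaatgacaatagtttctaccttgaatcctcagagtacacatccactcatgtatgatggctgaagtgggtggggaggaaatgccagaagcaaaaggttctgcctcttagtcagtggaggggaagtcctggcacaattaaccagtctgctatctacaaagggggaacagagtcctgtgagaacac

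The Ms4a2 window held 3 matches to the GATA motif, at -224, -37 and -11 from the start, of which only the last read AGATAA on the strand of the gene. GATA factors are known regulators of mast cells. At least 1 match was present in 11.2% of all 32851 RefSeq promoter windows of this length, and at least 3 in 35 windows (0.107%). The Ms4a3 window held no GATA match and a single C/EBP match at 41 bases after the start, a motif present in 10.8% of all windows. C/EBP factors are known regulators of granulocyte genes.

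The Ms4a4b and Ms4a4c windows were close copies of each other. A local alignment paired 178 columns, of which 159 (89.3%) were identical, starting at -131 in Ms4a4b and at -128 in Ms4a4c. The octamer match of Ms4a4c, present in 1.74% of all windows, and its RUNX match (16.8% of windows) lay upstream of the aligned stretch, as did the core promoter box match of Ms4a4b (13.6% of windows). The windows of Ms4a6c and Ms4a7 held none of the 8 motifs. These matches describe the letters only and are not binding sites shown by these data.

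Cells were sorted into 31 classes of 14 lineages by counting class markers with a unique molecular identifier (UMI), with no Ms4a gene among the markers. A single gate took 30627 cells (92.9%), 1475 cells passed no gate and 851 passed several, and 2776 gated cells (9.06%) lost or changed their lineage when each gate asked for 1 marker more. Levels are UMIs of a gene per 1000000 UMIs of a class (CPM), pooled over libraries. Since reads come from transcript 3′ ends, no length scaling was applied, and a level is compared between classes for the same gene. Intervals are exact Poisson 95% intervals for levels and Wilson 95% intervals for shares, and cover counting error only. Libraries held 2919 to 9345 cells and 47273569 to 123367661 UMIs, with a median of 9923 to 14001 UMIs per cell, and 138 barcode sequences occurred in more than 1 library. A library gave a value for a class where it held at least 10 of its cells.

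Ptprc, which encodes the sorted marker CD45, had a UMI in 95.8% of all cells, and in 12.6% of the 119 fibroblast-like cells. Hematopoietic stem and progenitor (HSPC), granulocyte precursor, cycling neutrophil precursor, pro-B, cycling pre-B and small pre-B-like cells, types known from the bone marrow, made up 13.2% of all cells and 5.04% to 17.8% of a library. Library 1 stood apart for Ms4a4c in classical monocyte-like, macrophage and cDC2-like classes, and those Ms4a4c levels are given with and without it.

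**Figure D1:**
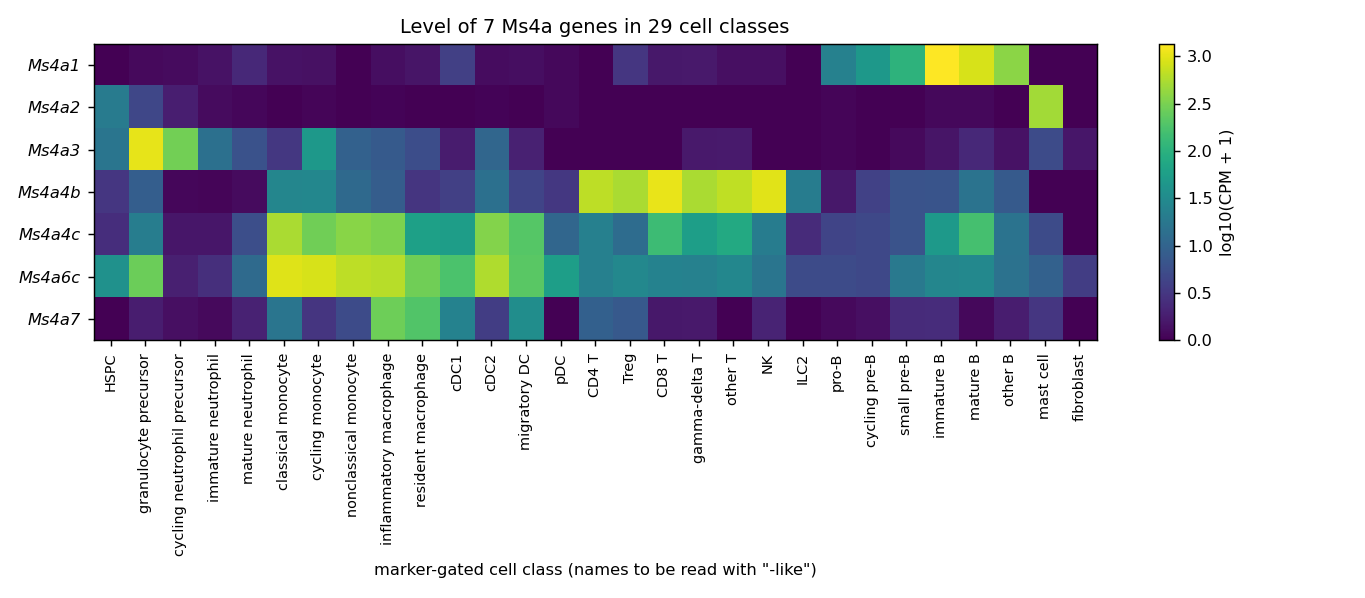
Level of the 7 members (rows) in the 29 marker-gated classes with at least 50 cells (columns), as log10(CPM + 1) on the color scale, pooled over 6 libraries. Ms4a1, Ms4a2 and Ms4a4b fill separate blocks of B, mast and T or NK classes, while Ms4a4c, Ms4a6c and Ms4a7 share the monocyte and macrophage columns.

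Among the 12 lineages with at least 50 cells, 4 of the 7 members were at least 5-fold higher in their top lineage than in every other, as were 1128 of 10171 genes that reached 20 CPM in some lineage (11.1%). Since the members were selected on such levels, nothing is read from this count. Ms4a1 was at 450 CPM in the B lineage and at 0.684 CPM in dendritic cells, the next of these 12 lineages. Ms4a2 was 25.9-fold higher in mast cells than in HSPC, Ms4a7 13.03-fold higher in monocytes and macrophages than in dendritic cells, and Ms4a3 9.26-fold higher in granulocyte precursors than in neutrophils. Basophils, with 44 cells and a high Ms4a2 level given below, were not among the 12 lineages. Nor were antibody-secreting cells, with 29 cells and Ms4a1 at 44.9 CPM.
The other 3 members were spread over neighboring lineages. Ms4a4b was at 973 CPM in NK and 758 CPM in T cells. Ms4a6c was at 668 CPM in monocytes and macrophages and 446 CPM in dendritic cells, and Ms4a4c at 318 and 280 CPM in the same lineages, with a ratio of 0.785 in the lowest library.

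Pooled over libraries, the level of Ms4a1 rose over the B-lineage classes in the order listed here, up to the immature B-like class. Its level was 22.6 CPM (19.8 to 25.8) in 759 pro-B-like cells, 45.6 CPM (38.2 to 54.0) in 230 cycling pre-B-like cells and 104 CPM (94.9 to 113) in 915 small pre-B-like cells. The level was 1345 CPM (1316 to 1374) in 1017 immature B-like cells and 874 CPM (849 to 899) in 885 mature B-like cells. Pro-B-like cells were called by Dntt, Igll1, Vpreb1 and Vpreb2, of the early antigen receptor program, and small pre-B-like cells by the recombinase genes Rag1 and Rag2. Cycling pre-B-like cells were called by cycle genes without a Rag UMI being required. Immature and mature B-like cells were called by a count of Ighd, Fcer2a, Cr2, Cd22, H2-Ab1, Cd74 and Ighm, with no Rag UMI. Mature B-like cells carried at least 2 of Ighd, Fcer2a and Cr2, which encode surface IgD, CD23 and CD21. Immature B-like cells carried fewer of these. Of the 5491 B-lineage cells, 1685 other B-like cells fell into none of these classes. They are left out of this order, so its steps are between gated classes only.

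By library, Ms4a1 ranged from 3.81 to 35.6 CPM in pro-B-like and from 9.80 to 130.7 CPM in cycling pre-B-like cells, which overlap, and the cycling class also overlaps with small pre-B-like cells. In library 1 cycling pre-B-like cells were at 15.9 and pro-B-like cells at 35.6 CPM, so the pooled order did not hold in every library. The share of cells with a Ms4a1 UMI was 3.92% to 13.4% by library in pro-B-like and 5.26% to 21.4% in cycling pre-B-like cells. These shares overlap as well. In small pre-B-like cells the Ms4a1 level was lowest at 75.1, median 105 and highest at 127 CPM. In immature B-like cells the lowest, median and highest libraries were at 1046, 1359 and 1505 CPM, and in mature B-like cells at 672, 891 and 966 CPM. The ranges of the small pre-B-like, immature and mature classes did not overlap. Immature B-like over small pre-B-like cells gave a ratio of 12.95, with 11.0 to 15.7 in single libraries. Immature over mature B-like cells gave 1.54, with 1.22 to 1.73, so the immature class was the higher in 6 of 6 libraries. The split between both classes was set after the data were seen.

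The share of cells with a Ms4a1 UMI did not show this last difference. It was 89.8% (87.8 to 91.5) in immature and 90.6% (88.5 to 92.4) in mature B-like cells, whose median depths were 5673 and 5784 UMIs. In CD8 T-like cells, at a median of 10542 UMIs, 0.707% had a Ms4a1 UMI. Rag-positive B-lineage cells were at 82.7 CPM and Rag-negative ones at 725 CPM, at median depths of 5738.5 and 5752 UMIs.

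Among B-lineage cells with no Rag UMI that were neither pro-B-like nor cycling, Ms4a1 was at 984 CPM in 844 cells with none of Ighd, Fcer2a and Cr2. It was at 1144 CPM in 1002 cells with 1 of them, 905 CPM in 647 cells with 2 and 784 CPM in 238 cells with 3. Ms4a4c in the same cells was at 18.6, 48.0, 151 and 185 CPM with 0, 1, 2 and 3 of these markers, so the levels went in opposite directions from 1 marker upward. The shares of cells with a UMI did not. They were 64.0%, 80.1%, 90.4% and 91.2% for Ms4a1 and 6.99%, 16.9%, 45.7% and 58.4% for Ms4a4c, in the same order. Mature B-like cells held Ms4a4c at 160 CPM (149 to 171) and immature B-like cells at 48.7 CPM (43.4 to 54.6), a ratio of 3.27 with 2.32 to 4.52 in single libraries. After thinning every cell to 3000 UMIs, both genes were found together in 25.1% of mature and 8.60% of immature B-like cells. Independent detection would give 26.9% and 8.64%.

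**Figure D2:**
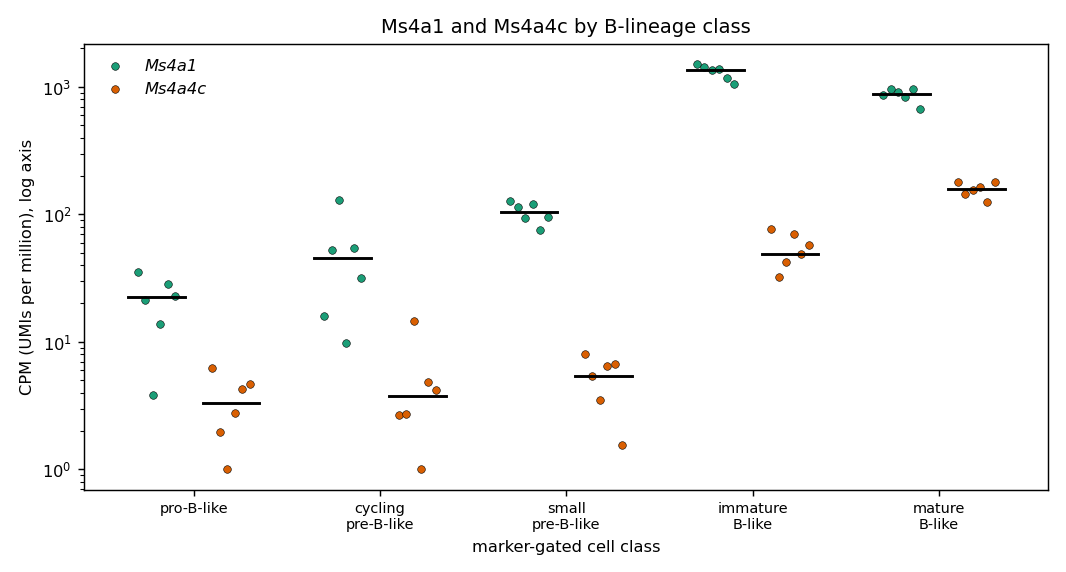
Ms4a1 and Ms4a4c in 5 B-lineage classes, in CPM on a log axis. Points are libraries 1 to 6 from left to right and bars the pooled level, with values below 1 CPM drawn at 1. Ms4a1 peaks in immature B-like cells at 1345 CPM and Ms4a4c in mature B-like cells at 160 CPM.

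The 29 antibody-secreting-like cells, the plasma cell type, held Ms4a1 at 44.9 CPM (31.5 to 62.2), and at 19.8 CPM without library 1. Among the B cell surface partners, Cd37, a tetraspanin of lymphocytes, was at 321, 499 and 371 CPM in small pre-B-like, immature and mature B-like cells, and Cd40, the receptor for CD40 ligand, at 40.9, 104 and 78.2 CPM. Pooled over libraries, both had the order of Ms4a1 over these 3 classes, as did Cd53, another tetraspanin, at 260, 366 and 315 CPM. By library, Cd37 ranged from 277 to 394, 376 to 597 and 319 to 435 CPM in the same order of classes. Cd53 ranged from 243 to 298, 315 to 394 and 244 to 345 CPM. For both genes the range of the mature class overlapped each of the others. The remaining partner on the list, Cd81, is not described here. Cd53 was not limited to B cells and was highest in mature neutrophil-like cells, at 692 CPM.

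Among the classes, Ms4a2 was highest in mast cell-like and basophil-like cells. Mast cell-like cells held 39.8% of its 1167 UMIs. Cells that passed several gates, which are in no class, also held Ms4a2, at 2.99 to 20.4 CPM by library. In library 2 these cells held 135 Ms4a2 UMIs. In 180 mast cell-like cells Ms4a2 was at 493 CPM (449 to 540), with the lowest, median and highest library at 293, 465 and 724 CPM. In 44 basophil-like cells it was at 315 CPM (259 to 381), a class too small for the lineage comparison and with at least 10 cells in only 1 library, at 341 CPM. HSPC-like cells were next at 19.04 CPM (16.1 to 22.4), ranging over libraries from 0 to 64.3 CPM with a median of 14.8. Mast cell-like and HSPC-like library ranges did not overlap.

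Mast cell-like cells had a Ms4a2 UMI in 80.6% of cells at a median depth of 4442 UMIs, against 0.0367% of classical monocyte-like cells at 15328 UMIs. Fcer1a, the IgE-binding alpha chain of the same receptor, was at 387 CPM in mast cell-like and 434 CPM in basophil-like cells, and at 9.59 CPM in HSPC-like cells. Of all genes searched, with Ms4a genes and gate markers left out, it had the pattern most like Ms4a2. Its Pearson r was 0.987 over 29 classes that share the same 6 libraries. In thinned cells, which left 122 of the 180 mast cell-like cells, Ms4a2 and Fcer1a were both found in 38.5% of mast cell-like and 38.1% of basophil-like cells. Independent detection would give 36.5% and 35.2%. Both genes were found in 0.539% of 371 thinned HSPC-like cells, where 2.96% had Ms4a2 alone and independent detection would give 0.0378%. The share with both rests on very few cells.

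The other chains and kinases of the receptor were not limited to these classes. Fcer1g, the shared gamma chain, was at 1614 CPM in mast cell-like, 1479 CPM in basophil-like and 1983 CPM in classical monocyte-like cells. Lyn, a kinase that phosphorylates the receptor, was at 868 CPM in mast cell-like and 2082 CPM in mature neutrophil-like cells. Syk, the kinase recruited next, was at 165 CPM in mast cell-like and 1585 CPM in small pre-B-like cells. Transcripts of 5 neutrophil genes (Ngp, S100a8, S100a9, Lcn2 and Camp) made up 3.66% of UMIs in mast cell-like and 9.48% in basophil-like cells, and Ms4a2 was at 0.120 CPM in mature neutrophil-like cells.

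Ms4a3 was high in precursors and low on either side of them. It was at 15.2 CPM (12.6 to 18.3) in HSPC-like cells, 1042 CPM (1028 to 1056) in 572 granulocyte precursor-like cells and 293 CPM (288 to 298) in 1487 cycling neutrophil precursor-like cells. In HSPC-like cells libraries 5 and 6 were at 36.3 and 18.7 CPM and the other 4 between 1.79 and 6.64 CPM, and the level without library 5 was 9.76 CPM. Ms4a3 was at 13.3 CPM (12.4 to 14.3) in immature and 5.21 CPM (4.35 to 6.19) in mature neutrophil-like cells. Granulocyte precursor-like cells were called by the primary granule genes Mpo, Elane, Prtn3 and Ctsg with Gfi1 and Calr, and the later classes by secondary granule genes such as Ltf, Camp and Ngp.

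Granulocyte precursor-like cells were at 684, 962 and 1260 CPM in the lowest, median and highest library, and cycling neutrophil precursor-like cells at 232, 278 and 526 CPM. Immature neutrophil-like cells were at 8.47, 9.001 and 17.4 CPM. None of these ranges overlapped. The first step gave a ratio of 3.55 with 1.48 to 4.82 in single libraries, and the second 22.1 with 18.5 to 59.2. From immature to mature neutrophil-like cells the ratio was 2.55, and the ranges overlapped, with 0.709 as the lowest of 5 libraries that gave one.

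In granulocyte precursor-like cells, those with at least 3 of 6 cycle genes held Ms4a3 at 1110 CPM (1094 to 1126) and the other 101 cells at 643 CPM (615 to 673). In HSPC-like cells the same split gave 31.9 CPM (25.1 to 39.9) and 7.65 CPM (5.46 to 10.4). Cycling monocyte-like cells held 45.9 CPM (43.8 to 48.1) and classical monocyte-like cells 2.23 CPM, and the cycling class was the higher in 6 of 6 libraries. In these 3 comparisons the cycling cells held more Ms4a3 when pooled over libraries. The splits of granulocyte precursor-like and HSPC-like cells were not made by library. In HSPC-like cells libraries 5 and 6 held 57 and 47 Ms4a3 UMIs, and no other library more than 8. The monocyte comparison was between separate gated classes.

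Granulocyte precursor-like cells had a Ms4a3 UMI in 89.2% of cells at a median depth of 35007.5 UMIs, and in 70.7% after thinning. None of 283 CD8 T-like cells had one, which allows a share of up to 1.06%. Of the table's Ms4a3 entries 12.1% were stored as 0, the largest share among the 7 members, which ran from 3.13% for Ms4a2. These entries were read as emptied by the ambient RNA correction.

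Ms4a6c, a monocyte gene, was also present in granulocyte precursor-like cells, at 263 CPM (256 to 270), and at 0.897 CPM in cycling neutrophil precursor-like cells. The granulocyte precursor gate allowed more classical monocyte markers in a cell than the neutrophil gate did. The part of the gates in this difference was not tested. In thinned granulocyte precursor-like cells, 18.8% held Ms4a3 and Ms4a6c, 51.9% Ms4a3 alone and 38.8% held Ms4a6c with or without it. Independent detection would give 27.4% with both. Of the genes searched, Chst13, which encodes a sulfotransferase, had the pattern most like Ms4a3 over 29 classes (r = 0.913). Its highest level was 24.9 CPM, in granulocyte precursor-like cells.

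**Figure D3:**
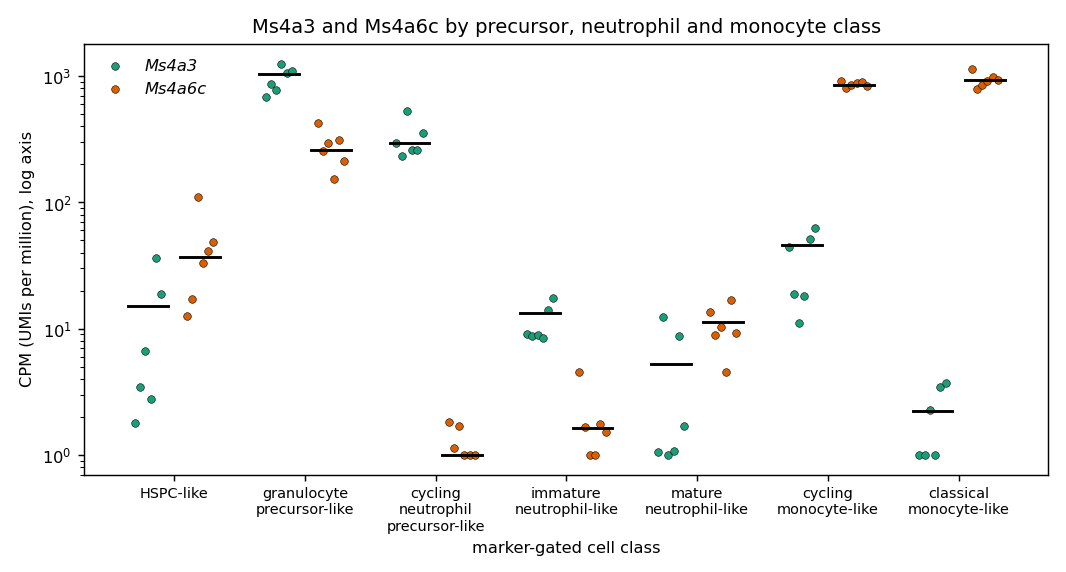
Ms4a3 and Ms4a6c in 7 precursor, neutrophil and monocyte classes, in CPM on a log axis. Points are libraries 1 to 6 from left to right and bars the pooled level, with values below 1 CPM drawn at 1. Pooled Ms4a3 peaks at 1042 CPM in granulocyte precursor-like cells. Pooled Ms4a6c is at or below 36.8 CPM in HSPC and neutrophil classes and above 850 CPM in both monocyte classes.

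Ms4a4b divided T and NK cells from the other classes. It was at 1055 CPM (1020 to 1091) in 283 CD8 T-like cells, 973 CPM (938 to 1009) in 274 NK-like cells and 664 CPM (629 to 701) in 190 CD4 T-like cells. It was at 541 CPM (494 to 590) in 112 regulatory T (Treg)-like and 531 CPM (495 to 569) in 142 gamma-delta T-like cells. The 83 group 2 innate lymphoid (ILC2)-like cells, called by Gata3, Il1rl1 and related genes, were at 19.7 CPM (10.8 to 33.1), and at 12.6 CPM without library 1.

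CD8 T-like cells were at 939, 1019 and 1293 CPM in the lowest, median and highest library and NK-like cells at 892, 961 and 1080 CPM, which overlap. CD4 T-like cells were at 478, 555 and 999 CPM, which overlaps with the CD8 range, although the ratio of CD8 to CD4 was above 1 in 6 of 6 libraries (1.59, with 1.29 to 1.96). CD8 T-like over gamma-delta T-like cells gave 1.99, with 1.42 to 3.20 and no overlap. CD4 T-like over Treg-like cells gave 1.23 and was above 1 in 4 of 6 libraries.

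Ms4a4b was also found at 26.0 CPM in classical and 27.3 CPM in cycling monocyte-like cells, where 29.4% and 43.8% of cells had a UMI. Small pre-B-like cells had one in 1.64%, at a median of 4967 UMIs against 15328 in classical monocyte-like cells. After thinning, the shares were 7.49% in classical monocyte-like, 1.14% in small pre-B-like and 91.8% in NK-like cells. Of the genes searched, Txk, a kinase of T and NK cells, had the pattern most like Ms4a4b over 29 classes (r = 0.919).

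Within T cells Ms4a4c went with CD8. It was at 138 CPM (126 to 152) in CD8 T-like and 22.1 CPM in CD4 T-like cells, a ratio of 6.26 with 3.85 to 17.2 in single libraries and no overlap. NK-like cells, which matched CD8 T-like cells most closely for Ms4a4b, were at 19.5 CPM for Ms4a4c. In thinned cells 21.1% of CD8 T-like and 4.10% of NK-like cells held both genes, where independent detection would give 21.2% and 4.45%. No 50-base stretch of the last 500 bases of their transcripts was common to Ms4a4b and Ms4a4c.

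**Figure D4:**
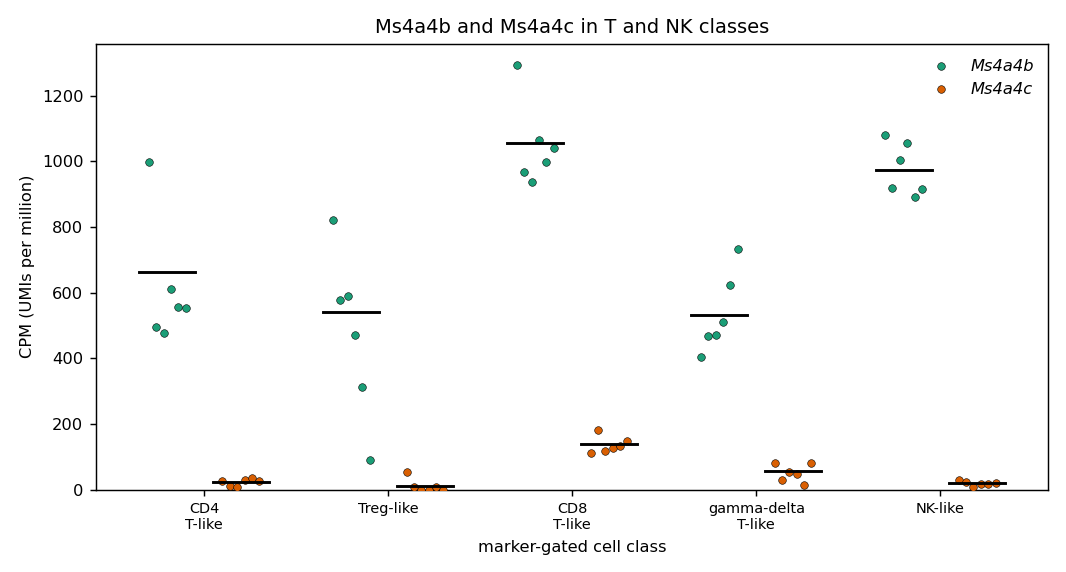
Ms4a4b and Ms4a4c in 5 T and NK classes, in CPM on a linear axis from 0. Points are libraries 1 to 6 from left to right and bars the pooled level. Ms4a4b lies between 892 and 1293 CPM in every library of the CD8 T-like and NK-like classes, and Ms4a4c is at 138 CPM in CD8 T-like and 19.5 CPM in NK-like cells.

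Over the monocyte and macrophage classes, Ms4a6c and Ms4a4c were highest in classical monocyte-like cells, and Ms4a7 in inflammatory macrophage-like cells. Ms4a6c was at 860 CPM (851 to 869) in cycling monocyte-like cells, 936 CPM (927 to 945) in classical monocyte-like cells, 612 CPM (607 to 617) in inflammatory macrophage-like cells and 279 CPM (273 to 284) in resident macrophage-like cells. Ms4a4c was at 285, 545, 325 and 59.2 CPM in the same order. Ms4a7 was at 2.02, 15.2, 274 and 188 CPM. Classical monocyte-like cells were called by Ly6c2, Ccr2 and related genes, inflammatory macrophage-like cells by Arg1, Spp1, Trem2, complement C1q genes and others, and resident macrophage-like cells by Lyve1, Cd163, Folr2, Timd4 and others.

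By library, Ms4a7 in inflammatory macrophage-like cells was lowest at 156, median 261 and highest at 366 CPM. In resident macrophage-like cells it was at 142, 177 and 229 CPM, and in classical monocyte-like cells at 11.9, 16.2 and 20.1 CPM. Both macrophage classes lay above the monocyte class with no overlap, by ratios of 17.99 (12.9 to 25.2) and 12.3 (7.68 to 17.2). The macrophage classes overlapped each other, and their ratio of 1.46 was above 1 in 6 of 6 libraries (1.10 to 2.05).

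Over the 10342 cells of the monocyte and macrophage lineage, Ms4a7 was higher the more of the 8 inflammatory macrophage markers were found, up to 7 of them. It was at 2.02 CPM with none, 3.28 with 1, 6.51 with 2, 21.1 with 3, 106 with 4, 227 with 5, 308 with 6 and 384 CPM with 7 of them. The 110 cells with all 8 were at 360 CPM. Ms4a6c was at 906 CPM with 1 marker, 465 CPM with 5 and 591 CPM with 7. The markers were Arg1, Spp1, Trem2, C1qa, C1qb, Apoe, Adgre1 and Cxcl9, and resident macrophage-like cells were among the cells counted. These steps therefore do not separate inflammatory from other macrophages. Marker counts also depend on the depth of a cell.

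Inflammatory macrophage-like cells had a Ms4a7 UMI in 63.0% of cells at a median of 20241 UMIs, and CD8 T-like cells in 0.353%. Cells with at least 3 of 6 cycle genes held less of it, at 99.7 CPM (93.1 to 107) against 293 CPM (289 to 296) in the other inflammatory macrophage-like cells. Of the genes searched, C3ar1, the receptor for complement C3a, and C1qc had the patterns most like Ms4a7 over 29 classes (r = 0.944 and 0.927). The related genes C1qa and C1qb were gate markers, so the C1qc pattern is not independent of how the classes were called. Ms4a7 was low in conventional dendritic cells (cDC) of the cDC2-like class, at 2.69 CPM in 530 cells, where Ms4a6c was at 577 and Ms4a4c at 357 CPM. The cDC2-like gate excluded cells rich in inflammatory or resident macrophage markers. The part of this gate in the low Ms4a7 level was not tested.

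In thinned cells, 65.2% of classical monocyte-like cells held Ms4a4c without Ms4a7, 0.894% Ms4a7 without Ms4a4c and 2.53% both. Resident macrophage-like cells were the reverse, with 3.08%, 31.8% and 2.19%. Inflammatory macrophage-like cells were divided among 28.2% with Ms4a4c alone, 21.4% with Ms4a7 alone and 17.5% with both, where independent detection would give 17.8%.

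**Figure D5:**
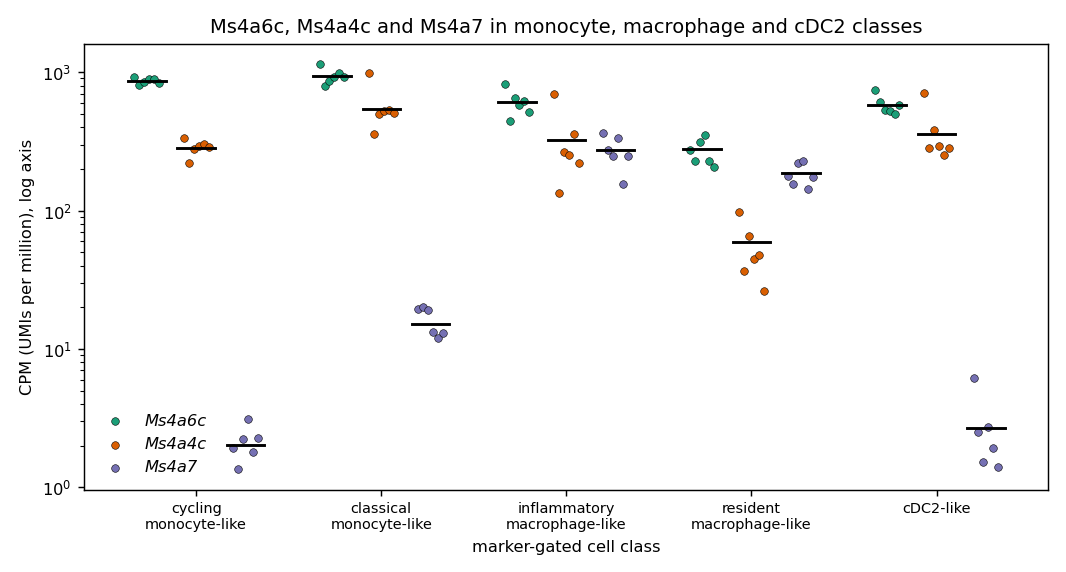
Ms4a6c, Ms4a4c and Ms4a7 in monocyte, macrophage and cDC2-like classes, in CPM on a log axis. Points are libraries 1 to 6 from left to right and bars the pooled level. Ms4a7 is at 15.2 CPM in classical monocyte-like cells and at 274 and 188 CPM in the macrophage classes, while library 1 holds the highest Ms4a4c point in every class shown.

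Ms4a4c in classical monocyte-like cells was at 993 CPM in library 1 and between 355 and 536 CPM in the other 5 libraries. In inflammatory macrophage-like cells it was at 696 CPM in library 1 and between 134 and 359 CPM in the others, and in cDC2-like cells at 702 CPM against 254 to 384 CPM. Without library 1 the levels of these 3 classes were 489, 243 and 301 CPM. In resident macrophage-like cells library 1 was at 97.5 CPM and the others between 26.3 and 65.6 CPM, and the level without it was 46.6 CPM. In cycling monocyte-like cells library 1, at 333 CPM, was close to the 304 CPM of the next library. The ratio of classical monocyte-like to inflammatory macrophage-like cells, 1.68 in all libraries, was 2.02 without library 1. CD8 T-like cells of library 1 were at 112 CPM, below the 117 to 181 CPM of the others.

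Ms4a6c varied less between libraries, from 794 to 1141 CPM in classical monocyte-like and from 442 to 825 CPM in inflammatory macrophage-like cells, so these ranges overlapped, and library 1 was again the highest in both. The pooled ratio was 1.53 and exceeded 1 in 6 of 6 libraries. From inflammatory to resident macrophage-like cells Ms4a6c gave a ratio of 2.20 and Ms4a4c of 5.48, with no overlap between the library ranges. Of the genes searched, Ctsc had the pattern most like both Ms4a6c (r = 0.926) and Ms4a4c (r = 0.831) over 29 classes. It encodes the lysosomal protease cathepsin C. Ms4a genes were left out of that search, and Ms4a4c and Ms4a6c had an r of 0.847 with each other.

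Ms4a6c was also found in dendritic classes. It had a UMI in 97.9% of classical monocyte-like cells, at a median of 15328 UMIs, and in 7.76% of small pre-B-like cells at 4967 UMIs, or 88.7% and 5.15% after thinning. It was at 653 CPM in 76 nonclassical monocyte-like, 174 CPM in cDC1-like, 212 CPM in migratory dendritic-like and 55.4 CPM in plasmacytoid dendritic-like cells. Between conventional dendritic classes Ms4a4c gave a pooled cDC2-like to cDC1-like ratio of 6.65, with 2.10 to 18.5 in 5 libraries. Ms4a6c gave 3.31, with 1.78 to 6.59, so the ratios of both genes overlapped.

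Transcripts of the same 5 neutrophil genes made up 3.10% of UMIs in classical monocyte-like, 6.17% in inflammatory macrophage-like (3.45% to 10.6% by library) and 4.23% in resident macrophage-like cells. The members themselves were low in mature neutrophil-like cells, with Ms4a6c at 11.2, Ms4a4c at 4.69 and Ms4a7 at 1.00 CPM. The part of neutrophil RNA in the monocyte and macrophage levels was not tested.

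Of the 8 Ms4a symbols outside the 7 members, Ms4a6d and Ms4a6b had the most UMIs. Ms4a6d was at 335 CPM in inflammatory macrophage-like, 245 CPM in resident macrophage-like and 236 CPM in classical monocyte-like cells, and at 81.3 CPM in cycling monocyte-like cells. Ms4a6b crossed the lymphoid and myeloid lineages, at 342 CPM in CD8 T-like, 306 CPM in CD4 T-like and 305 CPM in classical monocyte-like cells but 70.4 CPM in NK-like cells. Ms4a6c and Ms4a6b were the only pair of the 15 to share 50-base stretches in the last 500 transcript bases, 2.44% of those of Ms4a6c, so few of their reads could be split between them.

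The remaining 6 symbols were sparse. Ms4a8a was highest in classical monocyte-like cells at 46.0 CPM, Ms4a4a in nonclassical monocyte-like cells at 47.1 CPM, and Ms4a14 in resident macrophage-like cells at 13.8 CPM. Ms4a4d was at 42.3 CPM in fibroblast-like cells, from 78 of its 156 UMIs, with library values from 0 to 73.5 CPM. Ms4a12 had 25 UMIs and Ms4a15 had 9 in all cells. The related genes Tmem176a and Tmem176b were highest in migratory dendritic-like cells, at 651 and 586 CPM.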

How the data were processed

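The authors sorted CD45+ synovial cells, made libraries with the Chromium Single Cell 3′ v3.1 kit, and aligned reads to mm10 with Cell Ranger (version 7 per the submitters' processing notes). They removed ambient RNA with SoupX and doublets with DoubletFinder and, in Seurat, cells with more than 10% mitochondrial reads or with gene numbers outside 200 to 7000. The authors deposited 1 matrix of whole UMI counts, not scaled for depth, in which 1724738 entries are stored as 0. Doublets were not called again, and the 851 cells that passed several gates were left out of the classes.

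The members and gene lists were chosen with earlier results of these data known. Named genes were the 7 members, the other Ms4a symbols, Tmem176a and Tmem176b, and partners of the IgE receptor and of the B cell surface. For each member, the 5 genes most alike were also named, by Pearson correlation of log2(CPM + 1) over classes with at least 50 cells. The first of these is printed, with the second for Ms4a7. This search covered 10695 genes with at least 20 CPM in some class and left out all Ms4a genes and all gate markers. Interferon-stimulated genes were added after library 1 was seen. Cells were gated by how many markers of a list had a UMI (3 to 5 required). The numbers required and the splits between classes were set after the data were seen. Levels are summed counts per 1000000 UMIs with exact Poisson intervals. Thinning drew 3000 UMIs per cell with seed 0 and left out shallower cells. Since the treatment of each library is unknown, ranges over libraries stand in place of an SD, and no test was run. Alternatives were stricter gates, Leiden clusters built without Ms4a genes (scanpy 1.11.5, resolution 1, 15 neighbors, 30 components, 2000 variable genes), medians of libraries, thinning, stored zeros, at least 2 UMIs and leaving out each library. The count summaries were tested on simulated data. Tools were Python 3.11.15, numpy 2.4.6, scipy 1.17.1, pandas 2.3.3, matplotlib 3.10.9, igraph 0.11.9 and Biopython 1.88, the last for local alignment of promoters.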

Additional observations from a re-analysis of the deposited data

How the results depend on the processing

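The cause of these moves was not tested. With 1 marker more in each gate, levels were 1212 CPM for Ms4a1 in immature and mature B-like cells together (main value 1123), 1556 for Ms4a3 in granulocyte precursor-like cells (1042), 559 for Ms4a4c (545) and 963 for Ms4a6c (936) in classical monocyte-like cells and 280.3 for Ms4a7 in inflammatory macrophage-like cells (274). In Leiden clusters built without Ms4a genes they were 1186 CPM for Ms4a1, 437 for Ms4a2 in mast cells (493), 1013 for Ms4a3, 641 for Ms4a4b in T cells (758), 386 for Ms4a4c, 968 for Ms4a6c and 261 for Ms4a7. As the median of libraries they were 962 for Ms4a3, 518 for Ms4a4c, 926 for Ms4a6c and 261 for Ms4a7. Thinned to 3000 UMIs per cell, they were 1144 for Ms4a1, 982 for Ms4a3, 565 for Ms4a4c, 993 for Ms4a6c and 300.7 for Ms4a7.

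The share of cells with a UMI, in the order Ms4a1, Ms4a2, Ms4a3, Ms4a4b, Ms4a4c, Ms4a6c and Ms4a7, was 82.2%, 69.7%, 70.7%, 72.8%, 67.7%, 88.7% and 38.9% after thinning, and 80.4%, 57.2%, 83.9%, 78.2%, 88.0%, 95.9% and 53.2% when at least 2 UMIs were required. Counting entries stored as 0 as positive moved none of the 7 shares beyond its interval. The lowest fold of a single library between the top and next lineage was, in the same order, 69.8, 7.03, 6.32, 1.16, 0.785, 1.06 and 6.60, so for Ms4a4c the order of monocytes and dendritic cells changed.

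Leaving out each library in turn gave 1061 to 1177 CPM for Ms4a1, 451 to 513 for Ms4a2, 1006 to 1070.3 for Ms4a3, 724 to 787 for Ms4a4b, 489 to 585 for Ms4a4c, 910.2 to 966 for Ms4a6c and 254 to 293 for Ms4a7. No paired analysis was possible because no library could be linked to a sample. With 44 basophil-like and 180 mast cell-like cells, the Ms4a2 values rest on the fewest cells.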

Other observations

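Library 1, which had the highest Ms4a4c, also had the highest levels of 5 interferon-stimulated genes in classical monocyte-like, inflammatory macrophage-like and cDC2-like cells. These genes were chosen after the Ms4a4c values were seen. Isg15, a ubiquitin-like protein, was at 831 CPM in classical monocyte-like cells of library 1 and between 114 and 247 CPM in the other libraries. Ifit3 was at 107 CPM against 9.95 to 26.7 CPM. Irf7, a transcription factor of the interferon response, was at 325 CPM against 66.4 to 126 CPM. Rsad2, which encodes viperin, was at 353 CPM against 26.1 to 144 CPM.

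In inflammatory macrophage-like cells of library 1 Isg15 was at 727 CPM, against 118 to 298 CPM in the others. In resident macrophage-like cells library 1 was highest for Isg15, Rsad2 and Irf7. Library 5 was highest there for Ifit1, at 21.4 against 12.5 CPM in library 1, and for Ifit3, at 13.9 against 13.4 CPM. In cycling monocyte-like cells library 1 was highest for Ifit1, Ifit3 and Rsad2, and library 5 for Isg15 and Irf7. In CD8 T-like and mature B-like cells library 1 was not the highest for Ms4a4c. CD8 T-like cells of library 6 held the most Rsad2, at 35.0 CPM, with Ms4a4c at 149 CPM. The treatment of library 1 is not known, and the part of interferon in its Ms4a4c level was not tested.

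Ms4a6d was also highest in library 1 in classical monocyte-like cells, at 472 CPM against 95.3 to 307 CPM in the others, and in inflammatory macrophage-like cells, at 501 CPM against 201 to 361 CPM. In cycling monocyte-like, resident macrophage-like and cDC2-like cells another library held the most Ms4a6d. Ms4a7 in classical monocyte-like cells of library 1 was at 19.5 CPM, within the 11.9 to 20.1 CPM of the other libraries. Library 1 held the most Ms4a7 in inflammatory macrophage-like cells, at 366 CPM against 156 to 336 CPM. It also did so in cDC2-like cells, at 6.21 CPM against 1.40 to 2.73 CPM. In cycling monocyte-like and resident macrophage-like cells another library held the most Ms4a7.

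The windows of the paralogs Ms4a6c and Ms4a6b aligned over 234 columns with 193 identical (82.5%), a second pair of near copies besides Ms4a4b and Ms4a4c. Ms4a6c was at 22.1 CPM in CD4 T-like cells, where Ms4a6b was at 306 CPM.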
